A study of Mus musculus with 163 samples.

Results

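Of 82 hair cells sequenced from the cochlea of Rbm24 mutant mice at P7 (postnatal day 7), 44 held Igll1 at 10 CPM or more and 38 held less, most of these with a few counts or none, and this difference between cells of the same genotype is described here for outer hair cells (OHCs) and inner hair cells (IHCs) separately. A cell was placed in the Igll1 set if Igll1 reached 10 CPM (the gene's count over the cell's total count, scaled to a common total), and in the set called without Igll1 if it lay under 10 CPM, so the cells were chosen by their measured Igll1 level. Of the 163 cells in the series, 30 mutant OHCs and 14 mutant IHCs formed the Igll1 sets, 26 mutant OHCs and 12 mutant IHCs formed the sets without Igll1, and 43 control OHCs and 38 control IHCs gave the background. The mutants (Exp) had Cre inserted after one Atoh1 allele and tdTomato after the other, each through a P2A peptide, together with floxed alleles of Rbm24 on both chromosomes. The controls (Ctrl) carried the tdTomato insertion in one Atoh1 allele, and no Cre or floxed Rbm24 is named for them. Cre is therefore driven by Atoh1, which is active in hair cells and their precursors, and the mutant and control cells differ in Atoh1 alleles as well as in Rbm24. Fluorescent cells were hand-picked, and full-length cDNA of each was sequenced. No label names the animal of a cell, so the Igll1 sets cannot be told apart from sets of animals, each set is 1 sample, and no test was made.

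Igll1 encodes lambda-5, a part of the surrogate light chain that pairs with VpreB on developing B cells. In those cells its promoter is known to be bound by the Ebf1 protein and by E proteins such as the Tcf3 product. Rbm24 encodes an RNA-binding protein known as a splicing regulator in muscle and hair cells. OHCs amplify sound through the motor protein prestin, encoded by Slc26a5, and IHCs pass the signal to the auditory nerve through ribbon synapses.

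The Igll1 promoter is printed here because Igll1 divides the cells, with the promoters of Traf4 and Ucp3, which rank high among the genes that were higher and lower with Igll1 in both cell types. Each sequence runs 5′ to 3′ over 300 bases, from 250 bases before the gene's start to 50 after it, in the RefSeq annotation of GRCm38.p6. Igll1 lies at chr16:16863936-16864235 on the minus strand, Traf4 at chr11:78165501-78165800 on the minus strand and Ucp3 at chr7:100472741-100473040 on the plus strand. Capitals mark the E-box CANNTG, the letters that basic helix-loop-helix proteins such as Atoh1 and the Tcf3 product bind, which read the same on both strands.
Igll1: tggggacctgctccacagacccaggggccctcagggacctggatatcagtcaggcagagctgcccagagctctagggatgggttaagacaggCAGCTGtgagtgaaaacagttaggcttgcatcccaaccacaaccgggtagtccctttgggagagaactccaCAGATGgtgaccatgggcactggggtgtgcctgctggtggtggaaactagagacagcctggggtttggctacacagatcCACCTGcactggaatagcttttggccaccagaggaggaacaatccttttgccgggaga
Traf4: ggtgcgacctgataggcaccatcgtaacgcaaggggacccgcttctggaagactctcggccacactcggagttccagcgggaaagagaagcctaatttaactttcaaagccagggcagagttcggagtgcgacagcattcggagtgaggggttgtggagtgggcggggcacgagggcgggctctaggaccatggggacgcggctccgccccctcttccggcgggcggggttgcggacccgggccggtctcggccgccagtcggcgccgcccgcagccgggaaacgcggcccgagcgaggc
Ucp3: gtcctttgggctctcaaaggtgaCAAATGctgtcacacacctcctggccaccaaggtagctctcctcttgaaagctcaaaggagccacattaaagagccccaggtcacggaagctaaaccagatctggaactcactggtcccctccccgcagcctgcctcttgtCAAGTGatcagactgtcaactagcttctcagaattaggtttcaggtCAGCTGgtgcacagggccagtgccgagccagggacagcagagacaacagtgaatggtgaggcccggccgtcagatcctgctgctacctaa
The Igll1 and Ucp3 windows each held 3 of these matches and the Traf4 window held 0, while 72.3% of 32851 promoters of the same length held at least 1. Among the genes named below as shared between OHCs and IHCs that had a promoter entry, 5 of 10 higher genes (50.0%) and 10 of 11 lower genes (90.9%) held a match. The palindromic site of Ebf proteins, searched as TCCC, any 2 bases and the reverse complement of TCCC, which reads the same on both strands and cannot overlap an E-box, had 0 matches in all 3 windows and was found in 0.904% of the 32851 promoters. Tcf3 stood at 32.8 CPM in Igll1 OHCs and 21.0 CPM in OHCs without Igll1, and at 23.3 and 14.8 CPM in the same sets of IHCs. Ebf1 stood at 223 CPM in Igll1 OHCs and 244 CPM in OHCs without Igll1, and at 213 CPM in Igll1 IHCs and 124 CPM in IHCs without it.

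Igll1 was present or close to absent in a mutant cell, with no cell between. In OHCs it was at 10 CPM or more in 30 of 56 mutant cells (53.6%, exact binomial 95% interval 39.7 to 67.0%), where it ranged from 31.7 to 2461 CPM with a median of 237 CPM. The other 26 OHCs reached at most 0.875 CPM, and 7 of them had no Igll1 count. In IHCs it was at 10 CPM or more in 14 of 26 mutant cells (53.8%, 33.4 to 73.4%), at 39.9 to 3233 CPM with a median of 497 CPM, against at most 0.531 CPM in the other 12 cells, 4 of which had no count. These values made the sets and are no result. No Igll1 count was found in any of the 43 Ctrl OHCs or 38 Ctrl IHCs, and a limit of 3 cells, which is not the exact interval, allows shares of up to 6.98% and 7.89% of cells. The deleted gene did not follow the split: Rbm24 stood at 0.198 CPM in Igll1 OHCs, 0.229 CPM in OHCs without Igll1 and 315 CPM in Ctrl OHCs, and at 1.46, 1.57 and 431 CPM in the same order in IHCs.

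**Figure D1:**
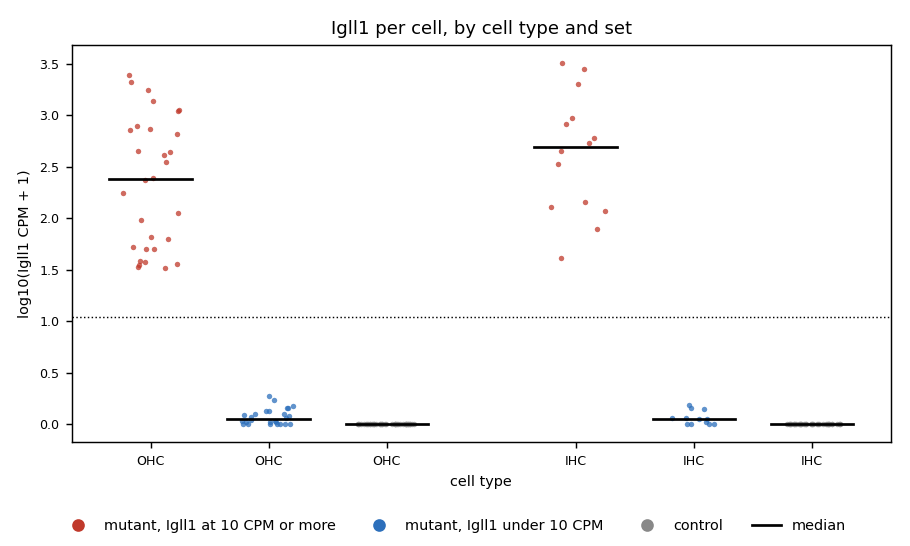
Igll1 in each of the 163 cells, as log10 of CPM + 1, for OHCs and IHCs; points are cells, black lines are medians and the dotted line is 10 CPM. The lowest cell above the line stands at 31.7 CPM and the highest below it at 0.875 CPM, and every control cell is at 0.

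The sets were alike in depth and differed somewhat in complexity. Total counts of the mutant cells ran from 8.34e+06 to 1.81e+07, with medians of 1.27e+07 in Igll1 OHCs, 1.28e+07 in OHCs without Igll1, 1.41e+07 in Igll1 IHCs and 1.43e+07 in IHCs without it. With every cell thinned to 5000000 counts, a median of 9099 genes was detected in Igll1 OHCs and 8647.5 in OHCs without Igll1, and 10003.5 and 8714 in the same sets of IHCs. The median share of counts from mitochondrially encoded genes was 3.43% in Igll1 OHCs and 4.19% in OHCs without it, and 3.88% and 4.39% in IHCs. The 10 highest genes took 7.54% and 9.69% in OHCs, and 7.66% and 8.94% in IHCs, in the same order. Cells with Y-linked transcripts numbered 7 of 30 Igll1 OHCs and 9 of 26 OHCs without Igll1, and 5 of 14 and 2 of 12 IHCs, so both sets held cells of both sexes. The part of these quantities in the results below was not tested, other than by thinning and by taking cells with Xist alone.

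Counts were summed over the cells of each set, and a gene was compared if it reached 10 CPM in the mean of the 2 sets. Past 2-fold means a log2 ratio of Igll1 cells over cells without Igll1 of 1 or more, or of -1 or less. In OHCs, 828 of 9219 compared genes were past 2-fold higher (8.98%) and 576 past 2-fold lower (6.25%). In IHCs, 1022 of 9195 were higher (11.1%) and 839 lower (9.12%). Many of these differences rest on a few cells: 552 of the higher and 284 of the lower genes in OHCs (5.99% and 3.08%), and 789 and 451 in IHCs (8.58% and 4.9%), were also past 2-fold in the median CPM + 1 of the cells.

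Of 8443 genes compared in both cell types, 192 were past 2-fold higher in both (2.27%) and 114 past 2-fold lower in both (1.35%), while 79 were past 2-fold in opposite directions (0.936%). In both cell types, 123 of the 192 but only 46 of the 114 were also past 2-fold in the median CPM + 1 of the cells. The 192 genes made up 27.6% of the OHC genes and 22.1% of the IHC genes past 2-fold higher, and the 114 made up 27.5% and 17.2% of those lower. Of 696 genes higher in OHCs, 487 had a ratio above 0 in IHCs (70.0%, against 52.1% of all compared genes). Of 414 genes lower in OHCs, 283 had a ratio below 0 in IHCs (68.4%, against 47.9%). Across genes, the OHC and IHC ratios had a Pearson r of 0.28 and a Spearman rho of 0.23 over 8443 genes, and 0.48 and 0.42 over the 2196 genes at 100 CPM or more. Genes are not independent replicates, and the cell types share no cell but may share animals. The shared genes were mostly protein coding, 186 of the 192 and 110 of the 114.

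**Figure D2:**
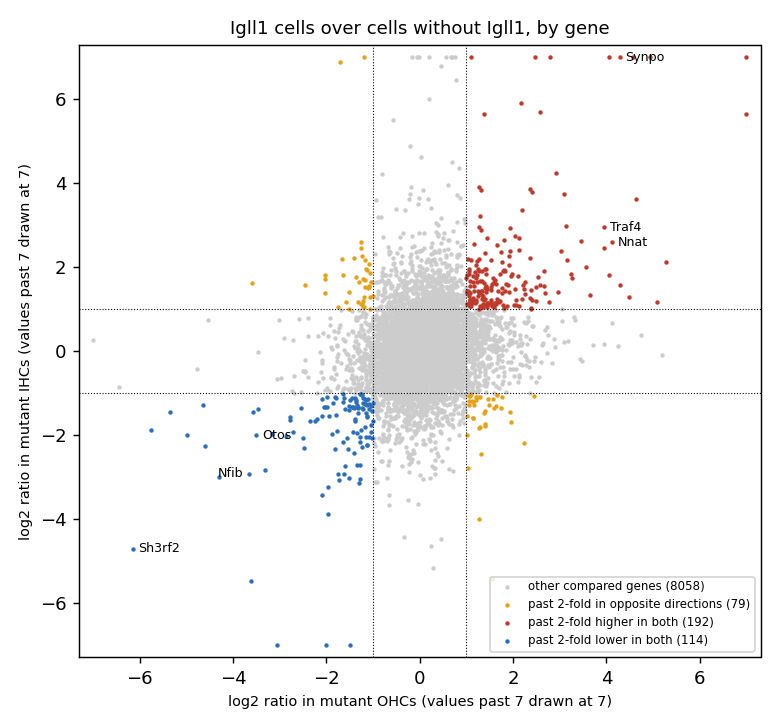
Log2 ratio of Igll1 cells over cells without Igll1 in mutant OHCs (x axis) and mutant IHCs (y axis), 1 point per gene compared in both; dotted lines are at 1 and -1, and ratios past 7 are drawn at 7. The 192 genes at upper right and 114 at lower left were past 2-fold the same way in both cell types, and 79 in opposite ways.

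The genes that led the shared higher group, by the smaller of their 2 ratios and with medians also past 2-fold, were Synpo, Traf4, Gm10564, Cldn3, Nnat, Gng8, Riiad1, Ly6h, Trim35, Uevld, Dll3, Nppa, Ak8, Man2b2 and Tekt2. They include an adaptor of cytokine receptors (Traf4), a tight junction protein (Cldn3), a G protein gamma subunit (Gng8), an inhibitory Notch ligand (Dll3), the precursor of atrial natriuretic peptide (Nppa) and a tektin of ciliary microtubules (Tekt2).

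Traf4 ranged from 0 to 289 CPM with a median of 70.0 CPM in Igll1 OHCs, from 0 to 95.5 CPM with a median of 0 in OHCs without Igll1, and from 0 to 64.0 CPM with a median of 0 in Ctrl OHCs. In IHCs it ranged from 0.100 to 332 CPM (median 66.2) with Igll1, from 0 to 92.0 CPM (median 0.0981) without it, and from 0 to 78.6 CPM (median 0) in controls. Most cells with Igll1 held Traf4 and most others did not, with overlap at both ends. It was at 10 CPM or more in 20 of 30 and 2 of 26 OHCs and in 12 of 14 and 2 of 12 IHCs, and the log2 ratios were 3.95 (95% counting interval 3.88 to 4.02) and 2.95 (2.88 to 3.01).

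Gng8 ranged from 0.0829 to 604 CPM (median 179) in Igll1 OHCs, from 0 to 271 CPM (median 11.8) in OHCs without Igll1 and from 0 to 107 CPM (median 0) in Ctrl OHCs. In IHCs the ranges were 0.0628 to 205 CPM (median 47.7) with Igll1, 0 to 13.0 CPM (median 0.104) without it and 0 to 113 CPM (median 0) in controls. Nearly every Igll1 OHC held Gng8, and among IHCs without Igll1 a single cell passed 10 CPM. Many OHCs without Igll1 also passed 10 CPM, however, and some Igll1 IHCs did not. The log2 ratios were 2.57 in OHCs and 5.70 in IHCs.

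Ly6h, which encodes a membrane-anchored protein known to bind nicotinic acetylcholine receptors, ranged from 0 to 597 CPM (median 84.8) in Igll1 OHCs, 0 to 133 CPM (median 0.195) in OHCs without Igll1 and 0 to 687 CPM (median 4.46) in Ctrl OHCs. In IHCs it ranged from 30.5 to 610 CPM (median 178) with Igll1, 0 to 110 CPM (median 41.0) without it and 0 to 305 CPM (median 56.4) in controls. The Ctrl cells span the ranges of both mutant sets in OHCs, and the log2 ratios between the mutant sets were 3.02 and 2.39. Riiad1 was at 10 CPM or more in 23 of 30 Igll1 OHCs and 2 of 26 OHCs without Igll1, and in 14 of 14 and 6 of 12 IHCs, with log2 ratios of 3.95 and 2.45.

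Synpo, which encodes the actin-associated protein synaptopodin, had the largest smaller ratio of these 15 genes, 4.29 in OHCs and 9.23 (8.39 to 10.23) in IHCs. It was at 10 CPM or more in 15 of 30 Igll1 OHCs and 1 of 26 OHCs without Igll1, and in 9 of 14 and 0 of 12 IHCs. Cldn3 reached 10 CPM in 18 of 30 and 4 of 26 OHCs and in 7 of 14 and 0 of 12 IHCs, and its IHC ratio of 12.57 (10.72 to 15.62) rests on 2 counts in the cells without Igll1. Nnat, which encodes the membrane proteolipid neuronatin, was at 10 CPM or more in 22 of 30 and 11 of 26 OHCs and in 11 of 14 and 7 of 12 IHCs. Its highest cell held 11889 CPM, and its log2 ratios were 4.13 in OHCs and 2.59 in IHCs. Dll3 averaged 120 CPM in Igll1 OHCs and 13.4 CPM in OHCs without it, and 59.4 and 13.3 CPM in IHCs.

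The genes that led the shared lower group were Sh3rf2, Nfib, Ucp3, Aifm3, Cdkn1a, Otos, Ppp4r4, Sall1, Dapk1, Dnase2a, Asphd2, Il10rb, Car2, AI593442 and Adprhl1. Among them are a pair of transcription factors (Nfib and Sall1), the cell cycle inhibitor p21 (Cdkn1a), a mitochondrial carrier of the uncoupling protein family (Ucp3), a death-associated kinase (Dapk1), a lysosomal nuclease (Dnase2a) and a carbonic anhydrase (Car2).

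Nfib ranged from 0 to 154 CPM (median 2.17) in Igll1 OHCs, from 0 to 1024 CPM (median 180) in OHCs without Igll1 and from 0 to 325 CPM (median 29.6) in Ctrl OHCs. In IHCs it ranged from 0 to 55.3 CPM (median 0.173) with Igll1, 0 to 330 CPM (median 59.3) without it and 0 to 351 CPM (median 9.43) in controls. The median of the controls thus lay between those of the mutant sets in both cell types. The log2 ratios were -3.66 (-3.69 to -3.63) in OHCs and -2.92 (-2.98 to -2.86) in IHCs.

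Sall1 ranged from 0 to 463 CPM (median 4.40) in Igll1 OHCs, 0.194 to 860 CPM (median 286) in OHCs without Igll1 and 76.4 to 954 CPM (median 461) in Ctrl OHCs. In IHCs it ranged from 0 to 242 CPM (median 14.4) with Igll1, 0 to 486 CPM (median 138) without it and 3.58 to 492 CPM (median 199) in controls. In OHCs 12 of 30 cells with Igll1 and 23 of 26 without it reached 10 CPM, as did every Ctrl OHC. The log2 ratios were -3.17 and -1.98.

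Cdkn1a was at 10 CPM or more in 9 of 30 Igll1 OHCs, 17 of 26 OHCs without Igll1 and 26 of 43 Ctrl OHCs, and in 5 of 14, 8 of 12 and 20 of 38 IHCs in the same order. Its log2 ratios were -2.86 and -2.02. Otos, which encodes the inner ear protein otospiralin, was at 10 CPM or more in 7 of 30 Igll1 OHCs, 22 of 26 OHCs without Igll1 and 39 of 43 Ctrl OHCs, and in 4 of 14, 6 of 12 and 38 of 38 IHCs. Its log2 ratios were -3.50 in OHCs and -2.01 in IHCs, and the IHC ratio was -0.64 among cells with Xist alone. Car2 likewise was at -2.78 in OHCs and -1.65 in IHCs, and at -0.81 among IHCs with Xist. Sh3rf2, which encodes an E3 ubiquitin ligase, was at 10 CPM or more in 1 of 30 and 13 of 26 OHCs and in 1 of 14 and 6 of 12 IHCs.

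**Figure D3:**
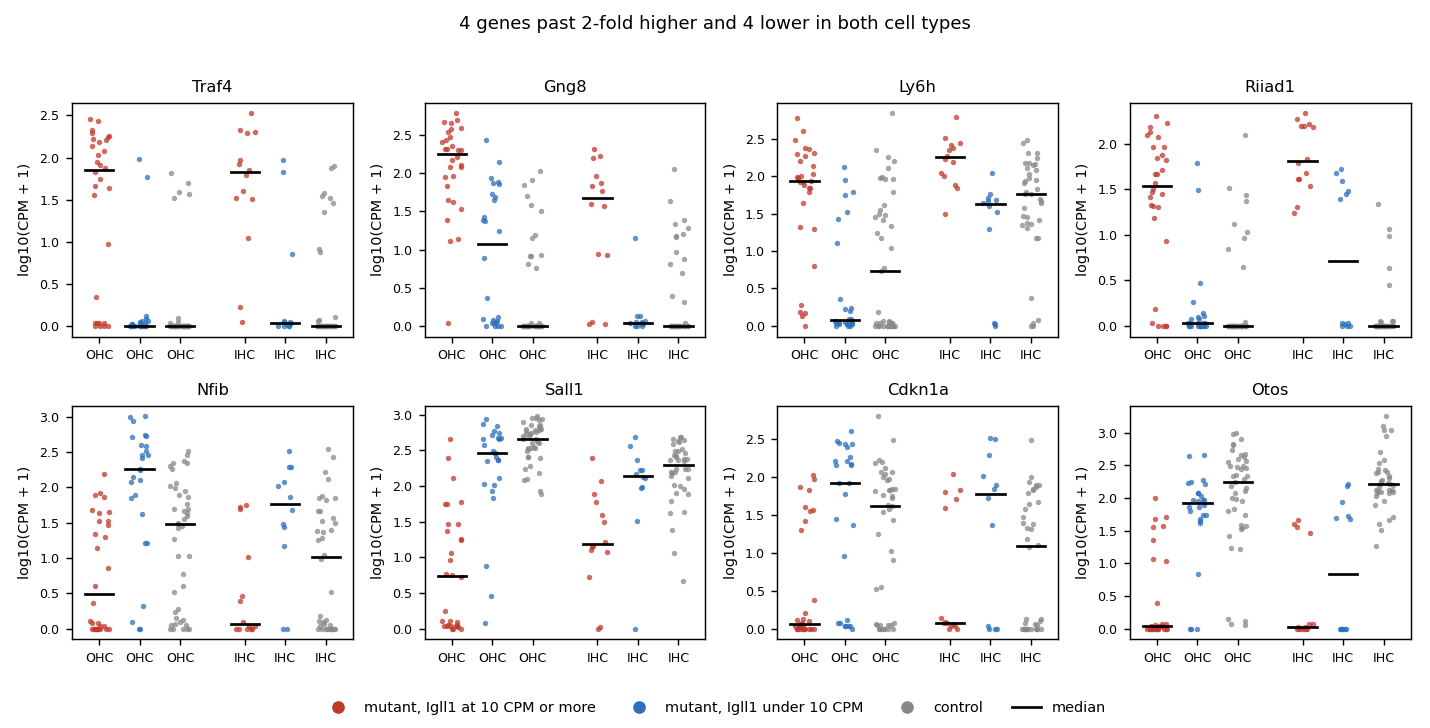
Log10 of CPM + 1 per cell for 4 genes past 2-fold higher (upper row) and 4 past 2-fold lower (lower row) with Igll1 in both cell types; points are cells and black lines are medians. Each gene is at or near 0 in part of the cells, and the sets overlap for all 8 genes, as for Traf4 with 20 of 30 Igll1 OHCs and 2 of 26 OHCs without Igll1 at 10 CPM or more.

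Set beside controls, most of the shared higher genes were nearer to the Ctrl level in the cells without Igll1. Over the 192 shared higher genes, the median log2 ratio to Ctrl OHCs was 1.84 in Igll1 OHCs and -0.070 in OHCs without Igll1, and the median ratio to Ctrl IHCs was 1.76 and -0.081 in the same sets of IHCs. For 142 of the 192 genes in OHCs (74.0%) and 144 in IHCs (75.0%), the cells without Igll1 were nearer to the control level. Over the 114 shared lower genes, the median ratio to controls was -1.41 in Igll1 OHCs and 0.30 in OHCs without Igll1, and -0.94 and 0.77 in IHCs. The cells without Igll1 were nearer to control for 83 of these genes in OHCs (72.8%), and in IHCs for 64 (56.1%), with both sets away from control in opposite directions by their medians. Over all compared genes, the cells without Igll1 were nearer to control for 57.5% in OHCs and 52.0% in IHCs, so the share of lower genes in IHCs was close to that of all genes. The mutant sets are both set against the same controls here, and the genes were chosen for their distance between the sets. Cells with Xist made up 37 of the 56 OHCs and 19 of the 26 IHCs that chose the genes. Among them alone, 172 of the 192 genes were past 2-fold higher in OHCs and 159 in IHCs, and 97 and 88 of the 114 past 2-fold lower, with 136 of the 192 and 66 of the 114 among the genes shared there.

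The genes most like Igll1 were ranked by their Spearman rho with it across all mutant cells of a type. Since no cell lay between the sets, a gene that only differs between the sets also has a high rho. Over 8555 genes detected widely enough, those with the highest smaller rho of the 2 cell types were Mgst3, Ccer2, Ly6h, Riiad1, Serhl, Svbp, Gng8 and Synpo. For Mgst3, which encodes a microsomal glutathione transferase, rho was 0.75 over 56 OHCs and 0.74 over 26 IHCs, and for Ccer2 it was 0.72 and 0.74. Within the Igll1 cells alone, rho was 0.62 over 30 OHCs and 0.53 over 14 IHCs for Mgst3, 0.64 and 0.38 for Ccer2, and 0.59 and -0.0022 for Serhl. These are descriptions of genes chosen for their rho, with no p. Mgst3 was present in every cell: it ranged from 393 to 2181 CPM (median 1085) in Igll1 OHCs, 83.1 to 964 CPM (median 302) in OHCs without Igll1 and 124 to 1198 CPM (median 298) in Ctrl OHCs, and from 750 to 2408 CPM (median 1200), 525 to 1318 CPM (median 782) and 416 to 1525 CPM (median 781) in the same sets of IHCs. The cells without Igll1 and the controls had nearly the same median of Mgst3 in each cell type, and the Igll1 cells lay higher. Its log2 ratio was 1.66 in OHCs, and 0.78 in IHCs, which is short of 2-fold. Ccer2 averaged 2264 CPM in Igll1 OHCs, 603 CPM in OHCs without Igll1 and 142 CPM in Ctrl OHCs, and 3185, 1195 and 160 CPM in IHCs, so it was above control in both mutant sets.

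Several genes typical of OHCs were lower in Igll1 OHCs. Of 13 compared OHC genes, 5 were past 2-fold lower (38.5%, beside 6.25% of all compared genes) and 1 higher (7.69%, beside 8.98%). Their median log2 ratio was -0.21 beside 0.055 for all compared genes, and lay between -0.29 and 0.10 under other settings. Ikzf2, the transcription factor Helios of OHC maturation, was at 10 CPM or more in 3 of 30 Igll1 OHCs, 18 of 26 OHCs without Igll1 and 37 of 43 Ctrl OHCs, with medians of 0, 48.3 and 163 CPM and a log2 ratio of -5.50 between the mutant sets. Slc26a5 was at 10 CPM or more in 9 of 30, 14 of 26 and 41 of 43 OHCs in the same order, and Ocm, which encodes the calcium buffer oncomodulin, in 6 of 30, 9 of 26 and 42 of 43. Both mutant sets thus stood far from control for Slc26a5 and Ocm, at summed levels of 10.8, 46.7 and 376 CPM for Slc26a5 and 4.77, 34.4 and 4951 CPM for Ocm. Aqp11, a water channel gene, had a ratio of -2.45, and Strip2 lay just past 2-fold lower. The listed gene that was higher was Neurod6, a neurogenic basic helix-loop-helix gene, which was rare in the control OHCs here. It was at 10 CPM or more in 16 of 30 Igll1 OHCs (53.3%), 2 of 26 OHCs without Igll1 (7.69%) and 1 of 43 Ctrl OHCs. In IHCs, Neurod6 was at 10 CPM in 0 of 14 and 0 of 12 mutant cells. Of 10 IHC genes compared in IHCs, 2 were past 2-fold higher (20%, beside 11.1% of all compared genes), Fgf8 at 1.00 and Brip1 at 1.63. The 1 lower was Atp2a3, a calcium pump, at -1.09 (10%, beside 9.12%).

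Hair cell identity genes leaned the other way in OHCs, with a median of 1.00 and 0 members past 2-fold lower. Past 2-fold higher were 6 of 11 compared members (54.5%, beside 8.98% of all compared genes). They were Ccer2 (1.91), Atoh1 (1.36), the homeobox genes Lhx3 (1.30) and Barhl1 (1.26), the zinc finger gene Gfi1 (1.03) and Eya1 (1.00). Atoh1, which starts hair cell formation and here also carries the insertions, averaged 137 CPM in Igll1 OHCs, 53.3 CPM in OHCs without Igll1 and 28.4 CPM in Ctrl OHCs. In IHCs, 1 of 12 members was past 2-fold higher, Ccer2 (8.33%, beside 11.1% of all compared genes), and the median of the list was 0.24. Under other settings the OHC median lay between 0.31 and 1.18.

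Neurogenic and neuroendocrine genes were higher in part in both cell types, with 0 lower in either and medians of 0.47 and 0.98. Higher were 4 of 9 compared in OHCs (44.4%, beside 8.98% of all compared genes) and 3 of 7 in IHCs (42.9%, beside 11.1%). Pcsk1, a prohormone convertase, was at 10 CPM or more in 25 of 30 Igll1 OHCs and 8 of 26 OHCs without Igll1, and in 11 of 14 and 3 of 12 IHCs. Its log2 ratios were 2.21 and 1.57, and those of the granule protein gene Chga were 1.23 and 1.81. Insm1 (1.11), at 10 CPM or more in 17 of 30 and 8 of 26 cells, and Hes6 (1.40) were higher in OHCs, and Nhlh1 (1.54) in IHCs.

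Cilium genes were higher more often than all genes in OHCs, where 11 of 26 compared members were past 2-fold higher (42.3%, beside 8.98% of all compared genes). Mapk10 and Rfx2 were the 2 lower (7.69%, beside 6.25%), and the median was 0.73. In IHCs, 4 of 27 were higher (14.8%, close to the 11.1% of all compared genes) and 0 lower, with a median of 0.39. The 4 were Tekt2, Fam92b, Hydin and Tekt4, of which Tekt2, Fam92b and Hydin were also higher in OHCs. Tekt2 ranged from 0.266 to 465 CPM (median 170) in Igll1 OHCs, 0.0623 to 448 CPM (median 0.703) in OHCs without Igll1 and 0 to 346 CPM (median 0) in Ctrl OHCs. In IHCs it ranged from 0.387 to 1081 CPM (median 539) with Igll1, 62.9 to 228 CPM (median 147) without it and 0 to 237 CPM (median 0) in controls. Tekt2 was thus present in each of the 12 IHCs without Igll1, and its difference there is one of level. The ciliary transcription factor gene Foxj1 had a ratio of 1.16 in OHCs and 0.24 in IHCs, and the axoneme gene Ccdc40 had a ratio of 1.65 in OHCs.

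Tmc1, a pore-forming subunit of the mechanotransduction channel, was lower in both cell types. It ranged from 0 to 628 CPM (median 60.5) in Igll1 OHCs, 0.337 to 1411 CPM (median 412) in OHCs without Igll1 and 16.2 to 1264 CPM (median 557) in Ctrl OHCs, and from 4.18 to 674 CPM (median 291), 363 to 1557 CPM (median 683) and 88.4 to 884 CPM (median 338) in the same sets of IHCs. In OHCs the control median was nearer that of cells without Igll1, and in IHCs nearer that of Igll1 cells. The log2 ratios were -2.09 and -1.15, the second at -0.96 among cells with Xist. Tmc2, the subunit that precedes Tmc1 in development, was at 0.47 in OHCs and 1.02 in IHCs. Of 10 mechanotransduction genes compared in OHCs, Tmc1 was the 1 past 2-fold lower (10%, beside 6.25% of all compared genes) and 0 were higher. Above 0 were 8 of the 10 (beside 54.1%), with a median of 0.17. Of 11 compared in IHCs, 1 was lower (9.09%, beside 9.12%) and 2 higher (18.2%, beside 11.1%), with ratios up to 9.15. There 4 were above 0 (beside 51.6%), with a median of -0.033. Of 31 hair bundle genes compared in OHCs, 3 were past 2-fold higher (9.68%, beside 8.98% of all compared genes), among them Tprn (2.72) and Fscn2 (1.26). Eps8 (-1.57) and Grxcr2 (-1.03) were the 2 lower (6.45%, beside 6.25%), so both shares were close to those of all genes. Among 31 in IHCs only Clic5 (-1.51) was past 2-fold (3.23%, beside 9.12% lower), with 0.17 from medians.

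Immediate early genes differed in IHCs, where 0 of 9 compared members had a ratio above 0, against 51.6% of all compared genes. Past 2-fold lower were 5 of the 9 (55.6%, beside 9.12% of all compared genes), and the median was -1.21. Fos ranged from 0 to 139 CPM (median 0.0668) in Igll1 IHCs, 0 to 850 CPM (median 68.4) in IHCs without Igll1 and 0 to 760 CPM (median 101) in Ctrl IHCs, with a log2 ratio of -3.68. The others were Egr1 (-2.14), Dusp1 (-1.49), Ier2 (-1.25) and Jun (-1.21). In OHCs 1 of 9 was past 2-fold lower (11.1%, beside 6.25% of all compared genes). It was Jun, at -1.65 with 269 CPM in Igll1 cells, 846 CPM in cells without Igll1 and 373 CPM in controls. These genes are also known to respond to cell dissociation, whose part was not tested.

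The compared genes of the 2 lists of energy metabolism did not reach 2-fold in either direction. These lists do not hold Cox4i2 and Ucp3, which are named elsewhere here as past 2-fold. Of 12 mitochondrially encoded genes compared, 0 were above a ratio of 0 in OHCs and 1 in IHCs, with medians of -0.28 and -0.20. Of 30 nuclear genes of oxidative phosphorylation, 4 were above 0 in OHCs and 12 in IHCs, with medians of -0.32 and -0.11. Over all compared genes, 54.1% were above 0 in OHCs and 51.6% in IHCs, with medians of 0.055 and 0.025. Of 11 p53 targets compared in each cell type, 2 were past 2-fold lower in OHCs (18.2%, beside 6.25% of all compared genes) and 2 in IHCs (18.2%, beside 9.12%). Higher were 1 in OHCs (9.09%, beside 8.98%) and 0 in IHCs. Cdkn1a was lower in both, and Ccng1 was lower in IHCs at -1.48. In OHCs Aen was lower at -1.36, with 0.21 among cells with Xist, and Sesn1 higher at 1.10, with -0.11 among cells with Y-linked transcripts. Of 16 stress genes compared in OHCs, 1 was past 2-fold higher (6.25%, beside 8.98% of all compared genes) and 1 lower (6.25%, beside 6.25%). The higher gene was Psph, a serine synthesis enzyme, at 2.31. Of 15 in IHCs, 2 were higher (13.3%, beside 11.1%), among them Xbp1, a factor of the unfolded protein response, at 1.68. The 1 lower there was Asns, at -1.13 (6.67%, beside 9.12%).

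Few other B cell genes reached 10 CPM. Of 26 other genes of the pre-B receptor and of B cells, 22 had counts in mutant OHCs and 19 in mutant IHCs, while 4 were compared in OHCs and 3 in IHCs. Their summed level had a median of 267 CPM in Igll1 OHCs and 258 CPM in OHCs without Igll1, and 302 and 161 CPM in the same sets of IHCs, most of it from Ebf1, whose levels are given above. Dntt, the terminal transferase of lymphocyte precursors, had no count in any mutant set. Vpreb1, the partner of lambda-5 in pre-B cells, stood at 0.164 CPM in Igll1 OHCs and had no count in OHCs without Igll1, and its highest cell held 5.89 CPM. Blnk, an adaptor of B cell receptor signalling, was at 10 CPM or more in 10 of 30 Igll1 OHCs and 0 of 26 OHCs without Igll1. In IHCs it was at that level in 1 of 14 and 3 of 12 cells. It was not among the 3 genes compared in IHCs, and no direction is read from so few cells. Cd24a, a surface protein gene of immature B cells and of other cells, was at 10 CPM or more in 5 of 14 Igll1 IHCs and 0 of 12 IHCs without Igll1, and in no mutant OHC with Igll1.

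Markers of other cells were mostly under 10 CPM, other than those of neurons. Of 12 neuron markers, 8 were compared in OHCs and 7 in IHCs. None of 7 erythroid and 8 endothelial markers was compared, and 1 of 9 mesenchyme, 1 of 16 supporting cell, 1 of 7 glial and 1 of 13 immune markers was. The immune markers Aif1, Cx3cr1, Fcer1g and Lyz2 had no count in either mutant set of either type. C1qb, the immune marker compared, averaged 361 CPM in Igll1 OHCs and 160 CPM in OHCs without Igll1 (1.17), and 274 and 293 CPM in IHCs. Summed supporting cell markers ran from 48.0 to 886 CPM in Igll1 OHCs and from 71.6 to 1715 CPM in OHCs without it, and from 2143 to 6214 CPM and 1337 to 4070 CPM in IHCs. The supporting cell marker compared was S100a1, a calcium-binding protein gene, at 276 CPM in Igll1 OHCs and 447 CPM in OHCs without Igll1, and at 3524 and 2445 CPM in IHCs. Gap43, a growth cone gene, was the 1 neuron marker past 2-fold in each cell type, at 1.82 and 1.42. That is 12.5% in OHCs (beside 8.98% of all compared genes past 2-fold higher) and 14.3% in IHCs (beside 11.1%), close to the shares of all genes. Of the compared neuron markers, 4 of 8 in OHCs and 3 of 7 in IHCs had a ratio above 0 (beside 54.1% and 51.6% of all compared genes). Their medians were -0.084 and -0.016. Cnp, a glial marker, was at 1.01 in IHCs.

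**Figure D4:**
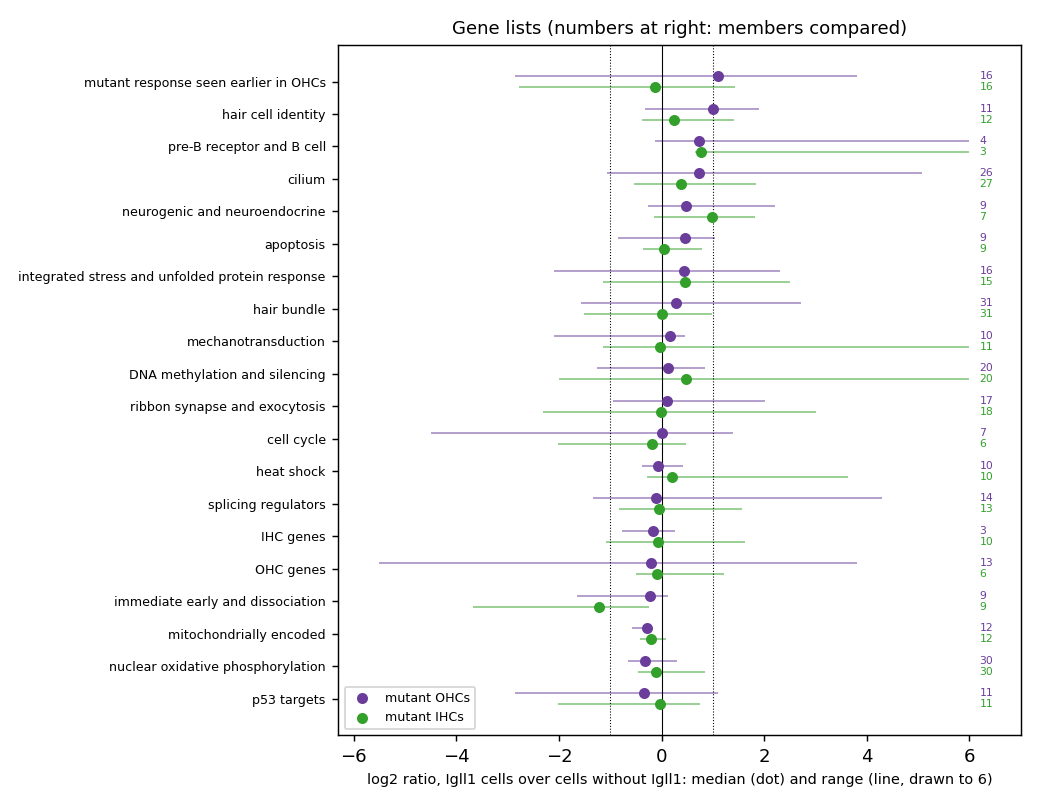
Median (dot) and range (line, drawn to 6) of the log2 ratio of Igll1 cells over cells without Igll1 for each list of genes, in mutant OHCs and mutant IHCs; numbers at right give the members compared. Hair cell identity genes lie at 1.00 in OHCs and 0.24 in IHCs, and immediate early genes at -0.23 in OHCs and -1.21 in IHCs.

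Among genes past 2-fold higher in sums and in medians, the 10 with the largest ratios in OHCs were Slc6a11, D930020B18Rik, Gpha2, Cox4i2, Synpo, Id3, Nnat, Stbd1, Riiad1 and Traf4. Slc6a11, a GABA transporter gene, was at 10 CPM or more in 13 of 30 Igll1 OHCs and 0 of 26 OHCs without Igll1, and in 6 of 14 and 0 of 12 IHCs, with ratios of 6.58 and 6.04, the second at a mean level under 10 CPM. Gpha2, a glycoprotein hormone subunit gene, reached 10 CPM in 17 of 30 and 2 of 26 OHCs. Id3, an inhibitor of basic helix-loop-helix factors, had a ratio of 4.25 in OHCs and 0.11 in IHCs, where 13 of 14 and 10 of 12 cells held it.

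The lowest ratios in OHCs belonged to Atp6v1c2, Pknox2, Sh3rf2, Thy1, Dapk1, Ikzf2, Ppp4r4, P2rx2, Tmem145 and Proser2. Atp6v1c2, a subunit of the vacuolar proton pump, had medians of 0 in Igll1 OHCs, 51.6 CPM in OHCs without Igll1 and 195 CPM in Ctrl OHCs, with a ratio of -9.03, and 0 Igll1 OHCs passed 10 CPM. P2rx2, an ATP-gated channel gene, was at 10 CPM or more in 2 of 30, 13 of 26 and 33 of 43 OHCs. Thy1 differed from these, at 10 CPM or more in 1 of 30 Igll1 OHCs, 13 of 26 OHCs without Igll1 and 0 of 43 Ctrl OHCs.

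In IHCs the 10 highest were Cldn3, Gm45104, Tbc1d22a, Col7a1, Rcor2, Fzd9, Kif16b, Asic4, Col4a2 and Apom. Col7a1, a collagen gene, was at 10 CPM or more in 10 of 14 Igll1 IHCs, 0 of 12 IHCs without Igll1 and 8 of 38 Ctrl IHCs. Rcor2, a corepressor gene, reached it in 8 of 14 and 0 of 12, and Fzd9, a Wnt receptor gene, in 7 of 14 and 0 of 12. The lowest were Wdr5b, Efcc1, Prickle1, Sh3rf2, Trim46, Col11a2, Ttf2, Gm6712, Slc22a4 and Gm45453. Col11a2, a fibrillar collagen gene, was at 10 CPM or more in 2 of 14 Igll1 IHCs, 10 of 12 IHCs without Igll1 and 16 of 38 Ctrl IHCs.

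The shared genes were chosen from sums over these same cells, split by Igll1. Their relation to the level of Igll1 within the Igll1 cells is therefore a description and no independent support. Without cells of 1000 CPM of Igll1 or more, a setting chosen after seeing the data, 123 of the 192 and 77 of the 114 genes remained shared. Across the 30 Igll1 OHCs, Igll1 had a Spearman rho of 0.57 with the mean log2(CPM + 1) of the 192 higher genes and of -0.68 with that of the 114 lower genes, and across the 14 Igll1 IHCs of 0.44 and -0.30. Its rho with the total count was -0.032 and -0.064. Between cells, the higher mean ran from 2.74 to 5.43 in Igll1 OHCs and from 0.74 to 4.66 in OHCs without it, and from 3.12 to 5.53 and 1.06 to 3.65 in IHCs. The lower mean ran from 0.92 to 3.26 and 2.27 to 4.97 in OHCs, and from 1.45 to 2.50 and 2.81 to 4.67 in IHCs, where the sets did not overlap. These separations follow from the choice of the genes.

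Whether the higher and lower genes also vary against each other in controls depends on how the means are taken. Across mutant cells the higher and the lower mean had a Spearman rho of -0.84 over 56 OHCs and -0.74 over 26 IHCs, from the genes' choice. Across Ctrl cells it was 0.12 over 43 OHCs and 0.010 over 38 IHCs. With each cell's mean over all compared genes subtracted from both, rho was -0.59 in Ctrl OHCs and -0.74 in Ctrl IHCs, and -0.96 and -0.96 in the mutant OHCs and IHCs. The sign in controls thus changes with the subtraction, and no relation is read from it. Pearson's r without the subtraction was -0.30 in Ctrl OHCs, and 0.22 without the 2 cells farthest from the median.

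**Figure D5:**
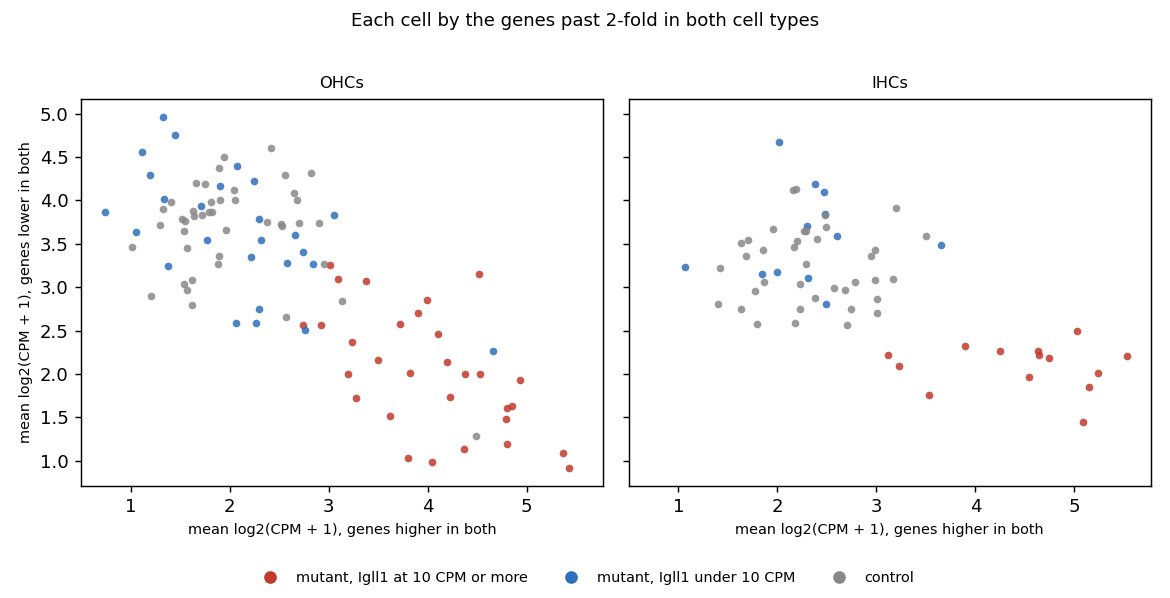
Mean log2(CPM + 1) of the 192 genes higher (x axis) and of the 114 genes lower (y axis) with Igll1 in both cell types, 1 point per cell, for OHCs and IHCs. Igll1 cells lie at lower right, with x from 2.74 to 5.43 in OHCs and 3.12 to 5.53 in IHCs, and the sets overlap: 4 of 26 OHCs and 1 of 12 IHCs without Igll1, and 5 of 43 Ctrl OHCs and 3 of 38 Ctrl IHCs, lie at or above the lowest Igll1 cell on the x axis, the highest of them at 4.66 in OHCs without Igll1 and 4.48 in Ctrl OHCs.

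Neighbours of Igll1 on chromosome 16 were looked at in GENCODE release M21 coordinates of GRCm38. Igll1 and Vpreb1 are both on the minus strand, and Vpreb1 lies upstream of Igll1, with 4418 bases between its nearer end and the start of Igll1. Top3b, on the plus strand, overlaps Vpreb1 and starts 6751 bases from the start of Igll1. Top3b, which encodes a topoisomerase, was higher in both cell types, at 107 CPM in Igll1 OHCs, 50.6 CPM in OHCs without Igll1 and 42.7 CPM in Ctrl OHCs, and at 146, 62.7 and 43.3 CPM in IHCs. The log2 ratios were 1.08 (1.06 to 1.11) and 1.21 (1.18 to 1.25), the second at 0.69 among cells with Xist. The pseudogenes Gm5768 and Gm49644, downstream of Igll1, had no compared values. Of 73 genes compared within 5 Mb of Igll1, 2 were past 2-fold the same way in both cell types, Top3b higher and Aifm3 lower (2.74%, beside 3.62% of all 8443 genes).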

How the data were processed

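The authors deposited raw read counts per gene and cell, 55291 genes by 163 cells, from reads that carry no molecular identifiers. The tools, per the submitters' processing notes, were featureCounts 2.0.1, HISAT2 2.2.1 and SAMtools, on mm10. The annotation release, strand setting and handling of shared reads are not given in the sources used here, so overlapping and antisense genes, such as Vpreb1 and Top3b or Riiad1 and Celf3, may share reads. Symbols came from GENCODE release M21 for 55034 identifiers (99.5%), and the rest held 0.0128% of counts.

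CPM is the count over the column total. The comparison between sets is a log2 ratio of summed CPM, with an exact conditional (Clopper-Pearson) 95% interval. Levels are summed CPM unless a range and median over cells is given. Intervals of ratios and floors cover counting error only. The binomial intervals of the shares of cells with Igll1 take cells as independent draws and cover no spread between animals. A sum of 0 was taken at 3 counts over the set. Igll1 itself was left out of every count of genes. Cells were picked by hand and no doublet caller was run. No pair of cells had identical columns. Named genes were, in each direction, the 10 largest ratios per cell type and the 15 shared genes with medians also past 2-fold, the 8 genes most like Igll1, list members past 2-fold, Igll1's neighbours and a few fixed genes; some genes that this rule names are not reported here. The members and lists were chosen with earlier results of these data known. TMM factors came from edgeR 4.0.16, with R 4.3.3, Python 3.11.15 and scipy 1.17.1. The ratio was tested on simulated data. Alternatives are given in the closing section.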

Additional observations from a re-analysis of the deposited data

How the results depend on the processing

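With an Igll1 threshold of 1 CPM, or with cells of 10 CPM or more against those under 1 CPM, the sets were the same cells. Under TMM factors, thinning to 5000000 counts, equal weight per cell, an Igll1 threshold of 100 CPM and leaving out each set's highest cell gene by gene, the shared counts ran from 178 to 228 higher and 88 to 139 lower, and 106 of the 192 and 62 of the 114 genes were among those at 100 CPM. Without cells of 1000 CPM or more, a setting chosen after seeing the data, 146 and 111 were shared.

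With genes at 1 CPM or more, the OHC counts were 2265 higher and 2044 lower, the IHC counts 2778 and 2547, the shared counts 583 and 494, and 638 genes went opposite ways. With no filter they were 5018 and 4258, 5001 and 3946, 1410 and 1007, and 1763. From medians of CPM + 1, 1843 genes were higher in OHCs and 2298 in IHCs, 732 were shared higher and 413 opposite. Among cells with Xist alone, 1304 were higher in OHCs and 195 opposite; with Y-linked transcripts alone, 1073 were lower in OHCs. Shared genes thus outnumber opposite ones less at low levels.

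Of 203 ratios of named genes past 2-fold, 8 turned sign in 1 or more of 13 alternatives. Some alternatives could not turn a sign: the gene filters, and the Igll1 settings that gave the same cells, leave every ratio as it is. Genes named for the largest or the shared ratios also had to be past 2-fold in medians. For these, medians could not turn the sign in the cell type that named them. In IHCs, medians gave 0.074 for Proser2, 0.83 for Bsn and 0.17 for Clic5, and an Igll1 threshold of 100 CPM gave -0.18 for Sema3c. In OHCs, cells with Xist gave 0.21 for Aen, and cells with Y-linked transcripts gave -0.50 for Rsph4a, -0.11 for Sesn1 and -0.031 for Sstr2. The cause was not tested.

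Y-linked cells in IHCs were not run, since 2 cells lay without Igll1. Leaving out each cell in turn did not apply. No paired analysis was possible because the numbers in the labels name picked cells and no test was made.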

Other observations

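One Ctrl OHC, which held no Igll1 count, stood apart from the other controls, with a mean log2(CPM + 1) of 4.48 over the 192 shared higher genes and of 1.28 over the 114 shared lower genes, beside medians of 1.88 and 3.76 over the 43 Ctrl OHCs. It was singled out after its values were seen.

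Igll1 counts were uneven among the cells that held it: the 3 highest cells gave 38.4% of the Igll1 counts in mutant OHCs and 65.8% in mutant IHCs. Of 14 splicing regulator genes compared in OHCs, 2 were past 2-fold higher (14.3%, beside 8.98% of all compared genes). Rbfox1 (-1.34) was the 1 lower there (7.14%, beside 6.25%). Of 13 compared in IHCs, 2 were higher (15.4%, beside 11.1%) and 0 lower. Their medians were -0.099 and -0.058, beside 0.055 and 0.025 for all compared genes. The 2 higher genes were Esrp2 and Khdrbs2 in both cell types, at log2 ratios of 4.30 and 1.28 in OHCs and 1.56 and 1.38 in IHCs. Cryab, a small heat shock protein gene, was at 10 CPM or more in 10 of 14 Igll1 IHCs and 2 of 12 IHCs without Igll1, with a ratio of 3.63, against 0.18 in OHCs, where every mutant cell held it. Slc52a3, a riboflavin transporter gene, averaged 704 CPM in Igll1 OHCs, 227 CPM in OHCs without Igll1 and 14.1 CPM in Ctrl OHCs, and 727, 333 and 1.89 CPM in IHCs.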
